A study of Mus musculus with 11 samples.

Results

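The 5 libraries described here compare organoids grown from the mouse oviduct (3 lines) with organoids grown from the ovarian surface epithelium (OSE; 2 lines), and are the wild-type organoid libraries among 27 libraries of normal tissue, organoids and tumors. All came from adult wild-type C57BL/6 females. Oviducts were digested with collagenase and ovaries with pronase, and the released epithelial cells were grown as hollow spheres of a single cell layer in basement membrane extract. As the general rule of the study, both kinds were kept in a medium with WNT and estrogen beside R-spondin, Noggin, EGF and an inhibitor of TGF-β receptors, and no other medium is named for the sequenced lines. A further OSE line was left out by the authors because it was contaminated, and the remaining ones are called OSE line 1 and line 2. As a second set of oviductal organoids, 3 lines from mice that express Cas9 and GFP from the ROSA26 locus are shown beside the results, and 3 oviduct tissue and 3 OSE tissue samples, also from C57BL/6 mice, enter a comparison with the parental tissues.

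The oviduct is lined by secretory cells, which make the oviductal fluid and its glycoprotein Ovgp1, and by ciliated cells, which move the egg. This epithelium arises from the Müllerian duct, whose regions are patterned by *Hox* genes and which depends on *Pax2*. The OSE is a single layer of flat to cuboidal cells that covers the ovary, is repaired after each ovulation, carries no cilia, and shares markers such as mesothelin (*Msln*) with the mesothelium.

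Reads were counted at the 3′ end of transcripts, and levels are given as CPM, counts relative to the library size after scaling by the TMM factors of edgeR. The libraries held 1455037 to 2472821 counts in oviductal organoids, 1571761 in OSE line 1 and 2165162 in OSE line 2, on 11314 to 12612 genes with a count. A level based on 3 counts was 1.22 to 2.23 CPM, and a count of 0 was read as a level of up to 3 counts in that library. Such limits cover counting error only. Mitochondrial genes took 26.5 to 29.4% of the counts in the oviductal and 21.7 to 22.3% in the OSE lines; the part of this difference in the results was not tested. The epithelial identity of all 5 libraries was visible in *Krt8*, a keratin of simple epithelia, which had 1162, 1299 and 1568 CPM in the oviductal lines and 1523 and 1617 CPM in the OSE lines, and in *Cdh1* (E-cadherin), with 864 to 1184 CPM. Erythroid markers had no count, and the summed markers of oocytes, smooth muscle cells, leukocytes and endothelial cells stayed at or under 16.5 CPM in each library. Fibroblast markers summed to 33.6 CPM in OSE line 2, mostly *Dcn* (17.9 CPM) and *Col3a1* (14.8 CPM), and to at most 4.45 CPM in the other 4 libraries. Granulosa markers reached 31.8 CPM in OSE line 2, of which *Nr0b1* gave 20.5 CPM, against 4.06 to 8.16 CPM elsewhere.

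The OSE lines were checked against markers of OSE and mesothelial cells, of which 26 of 26 were in the table. *Krt19*, a keratin found in the OSE, had 166, 140 and 163 CPM in oviductal organoids and 397 and 445 CPM in OSE lines 1 and 2. *Aldh1a2*, which makes retinoic acid, had 0, 2.23 and 0 CPM in oviductal organoids and 45.02 and 30.5 CPM in the OSE lines. *Wt1*, a transcription factor of the coelomic epithelium, did not separate the groups, with 131 to 149 CPM in oviductal lines and 183 and 117 CPM in OSE lines. Of the 26 markers, 8 were at or under 3 counts in each of the 5 libraries and 5 of these had no count at all. Of the 12 markers tested, edgeR called 0, with 1 higher and 6 lower in oviductal organoids at an unadjusted p under 0.05. DESeq2 called 5 lower (*Krt19*, *Msln*, *Aldh1a2*, *Gata6* and *Podxl*) and 0 higher. Over all genes, 598 of 9257 were higher and 462 lower at that unadjusted p, and DESeq2 called 1.57% higher and 0.799% lower. The median log2 fold change of the 12 was -1.47, beside 0.01 over all genes tested. Some defining OSE markers were thus present and others not detected at this depth.

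Promoters of 4 genes on which the results turn are given from RefSeq (mouse genome build GRCm38.p6), from 250 bases before to 50 bases after the annotated start. *Anpep* and *Gcnt4* were low in both OSE lines, *Hoxb8* belongs to a run of neighboring *Hoxb* genes low in both OSE lines, and *Ovgp1* separated the OSE lines from each other. The windows are chr7:79848161-79848460 on the minus strand for *Anpep*, chr13:96924463-96924762 on the plus strand for the second of the *Gcnt4* starts, chr11:96281655-96281954 on the plus strand for *Hoxb8* and chr3:105973552-105973851 on the plus strand for *Ovgp1*. Capitals mark matches, on either strand, to the motifs CCAAT and TATAAA.
Anpep: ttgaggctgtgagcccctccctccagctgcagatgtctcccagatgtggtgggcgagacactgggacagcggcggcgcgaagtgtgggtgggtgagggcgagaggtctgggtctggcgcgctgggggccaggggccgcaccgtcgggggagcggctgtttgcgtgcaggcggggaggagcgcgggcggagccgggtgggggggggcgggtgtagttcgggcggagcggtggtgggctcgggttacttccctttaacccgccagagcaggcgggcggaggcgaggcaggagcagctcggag
Gcnt4: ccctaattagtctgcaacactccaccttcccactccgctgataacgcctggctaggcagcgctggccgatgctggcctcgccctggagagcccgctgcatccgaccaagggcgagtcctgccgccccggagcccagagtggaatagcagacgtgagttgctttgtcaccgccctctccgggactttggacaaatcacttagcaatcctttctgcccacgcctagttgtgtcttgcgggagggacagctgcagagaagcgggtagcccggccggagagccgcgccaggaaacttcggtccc
Hoxb8: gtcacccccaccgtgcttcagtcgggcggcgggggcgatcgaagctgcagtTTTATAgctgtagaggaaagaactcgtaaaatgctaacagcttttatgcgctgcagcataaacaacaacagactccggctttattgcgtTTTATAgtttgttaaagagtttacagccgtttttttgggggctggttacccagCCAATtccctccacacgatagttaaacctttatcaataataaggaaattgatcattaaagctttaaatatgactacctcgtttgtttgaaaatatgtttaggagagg
Ovgp1: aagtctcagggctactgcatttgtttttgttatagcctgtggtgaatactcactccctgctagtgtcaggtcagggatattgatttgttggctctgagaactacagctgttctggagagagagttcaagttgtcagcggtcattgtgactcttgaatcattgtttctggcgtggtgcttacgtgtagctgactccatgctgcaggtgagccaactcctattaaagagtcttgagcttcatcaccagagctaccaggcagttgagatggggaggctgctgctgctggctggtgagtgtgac
The *Hoxb8* window held 1 match to CCAAT and 2 to TATAAA, written on the opposite strand as TTTATA, and the other 3 windows held neither motif. The first *Gcnt4* start, at chr13:96924094-96924393 and not printed, held 1 match to CCAAT. Over 32851 RefSeq promoters of this length, 37.4% held CCAAT and 13.6% held TATAAA. The motif TGATTNAT, a HOX type of motif, was in 3.22% of promoters and in none of the 4 windows; the matches in *Hoxb8* did not overlap.

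The first question was which genes differed between oviductal and OSE organoids when both OSE lines were taken as replicates. By the quasi-likelihood test of edgeR with Benjamini-Hochberg adjustment, 8 of 9257 genes were higher in oviductal organoids (0.0864% of the genes tested) and 0 were lower (0%). At an unadjusted p under 0.05, 598 genes were higher and 462 lower. DESeq2, the tool of the study, called 175 genes higher (1.57% of 11133 genes with an adjusted p) and 89 lower (0.799%), among them the 8 genes of edgeR. Levels of the groups did not overlap for 1489 genes that were higher (16.1%) and 1259 that were lower (13.6%) in oviductal organoids. The lines were independent derivations, each from the pooled tissue of several mice, so the p-values measure the spread between lines and not between single mice.

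The 8 genes encode enzymes, a *Hox* factor and membrane, signaling or actin-binding proteins, and all but *Anpep* were at 4.502 CPM or less in both OSE lines. *Anpep*, the membrane aminopeptidase N, had 239, 235 and 203 CPM in oviductal lines and 18.65 and 27.05 CPM in OSE lines 1 and 2, a log2 fold change of 3.29 ± 0.31 (SE; edgeR adjusted p = 0.0264). *Tmem30b*, a partner subunit of lipid flippases, had 91.8, 140 and 138 CPM against 4.502 and 4.36 CPM (log2 fold change 4.78 ± 0.38, SE; adjusted p = 0.0264). *Gcnt4*, an enzyme that branches O-linked glycans, had 77.1, 123 and 68.4 CPM against 1.29 and 1.75 CPM (5.79 ± 0.50 on the log2 scale, SE; adjusted p = 0.0264). The groups were apart by a wide gap for these 3 genes, and the OSE lines were close to each other.

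*Smpdl3a*, a phosphodiesterase related to acid sphingomyelinase, had 35.3, 51.2 and 45.6 CPM in oviductal lines against 1.93 and 1.75 CPM in OSE lines (log2 fold change 4.54 ± 0.43, SE; adjusted p = 0.0264). The kinase gene *Pak3* had 107, 89.0 and 90.6 CPM against 0 and 0.873 CPM, the latter 2 counts, and the ratio of pooled counts was 188 with a 95% counting interval of 51.7 to 1553 (adjusted p = 0.0264). *Hoxb5* had 32.5, 34.9 and 29.1 CPM against 0.643 and 0.873 CPM, which are 1 and 2 counts, and its ratio was 41.0 with an interval of 13.8 to 201 (adjusted p = 0.0264). The OSE lines were at the limit of detection for both. These counting intervals, and that of *Hoxb6* below, take each read as independent. They leave out amplified copies and the spread between lines, and may be too narrow. *Fndc7* had no count in either OSE line and 36.9, 62.3 and 70.1 CPM in oviductal lines, at least 34.9-fold higher (adjusted p = 0.0479). *Scin*, which encodes the actin-severing protein scinderin, also had no count in the OSE lines and 28.4, 29.7 and 23.9 CPM in oviductal lines, at least 16.9-fold higher (adjusted p = 0.0479). All 8 genes were apart in 3 of 3 oviductal against 2 of 2 OSE lines, beside 16.1% of all genes tested that were apart and higher. Without any 1 of the 3 oviductal lines, edgeR called 0 genes in either direction, while the direction of all 8 was kept. The same libraries chose the 8 genes, so neither their separation nor the kept direction is further support.

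**Figure D1:**
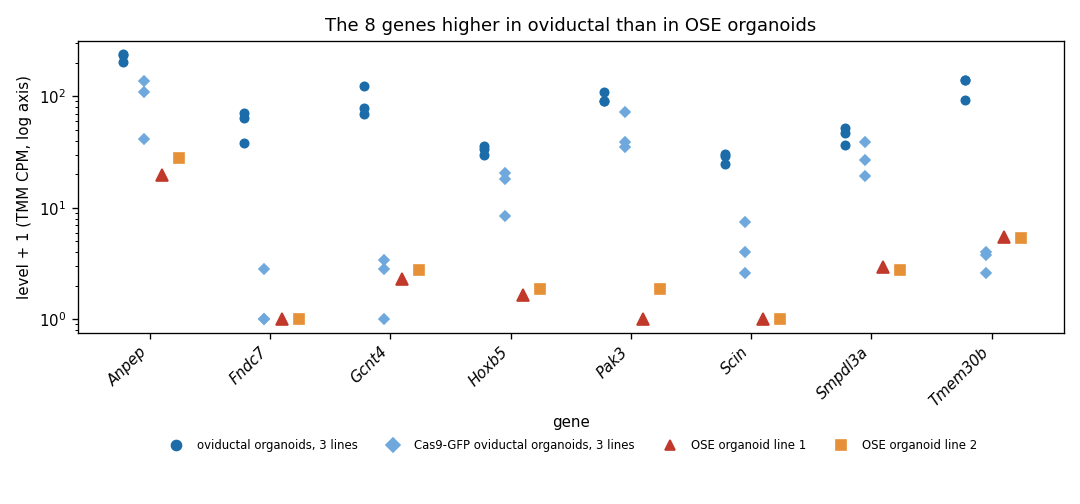
Level plus 1 (TMM-scaled CPM, log axis) of the 8 genes called by edgeR, a point per library, for 3 oviductal organoid lines, 3 Cas9-GFP oviductal lines and OSE organoid lines 1 and 2. *Anpep*, *Hoxb5*, *Pak3* and *Smpdl3a* stay above the OSE lines in the Cas9-GFP lines, whereas *Tmem30b*, *Gcnt4* and *Fndc7* are near the OSE lines there.

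The oviductal lines from Cas9-GFP mice, put on the same scale, did not carry all of these genes. *Pak3* had 34.1 to 70.6 CPM, *Anpep* 40.5 to 136 CPM, *Smpdl3a* 18.4 to 38.1 CPM and *Hoxb5* 7.37 to 19.6 CPM in the 3 lines, above both OSE lines. *Tmem30b*, in contrast, had 1.62 to 3.01 CPM, below both OSE lines, and *Gcnt4* had 0 to 2.43 CPM and *Fndc7* 0 to 1.84 CPM. *Scin* had 1.62 to 6.44 CPM, above the OSE lines but under the C57BL/6 lines. Among the 8 genes, the Cas9-GFP lines were above both OSE lines for 5, below both for 1 and overlapping for 2; over all genes tested they were above for 18.2% and below for 20.6%. The OSE libraries that chose the 8 genes are also the reference here, so nothing is read from that excess, and the genotype of the mice and other differences between these sets of lines cannot be told apart.

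The OSE lines were then read separately, since they were unlike each other. Across 9257 genes, log2(CPM + 1) of OSE line 2 correlated with the oviductal lines at Pearson's r = 0.864 to 0.874 and with OSE line 1 at 0.776. OSE line 1 correlated with the oviductal lines at 0.728 to 0.747, and the oviductal lines with each other at 0.917 to 0.943. These are descriptions across genes, which are not replicates. Line 2 was therefore nearer to the oviductal lines than to line 1. Fitted alone against the 3 oviductal lines, with its spread assumed to be that of the oviductal lines, OSE line 1 was lower for 859 genes and higher for 589 (edgeR, of 9844 tested), whereas OSE line 2 was lower for 151 and higher for 100 (of 10043 tested). Of the 9607 genes tested with each line, 103 were called lower with both, which is part of 859 calls for line 1 and 151 for line 2. Another 23 were called higher with both, of 482 and 79, and 20 were called in opposite directions.

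A line was taken to stand apart for a gene where its level lay over 4-fold outside the range of the 3 oviductal lines. By this rule 79 of the 9257 genes were low in both OSE lines (0.853%) and 14 were high in both (0.151%). In line 1 only, 423 genes were low and 105 high, compared with 76 low and 22 high in line 2 only. A further 4 genes, *Folr1*, *Lgals1*, *Mpp3* and *Ttc39a*, lay on opposite sides. The filter asks for enough counts in more than 1 library, and among the genes it left out a further 126 were high in line 1 only and 39 in line 2 only. With 1 library a line, these classes have no test.

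**Figure D2:**
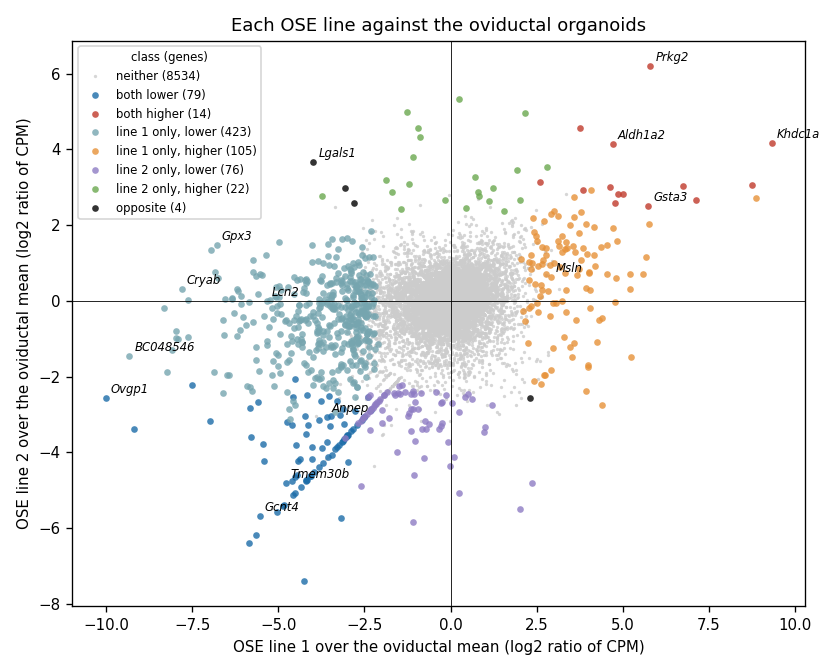
Log2 ratio of CPM of OSE line 1 (x axis) and OSE line 2 (y axis) to the mean of the 3 oviductal lines, a point per tested gene, colored by class with the number of genes. Line 1 spreads wider than line 2, with 423 genes low in line 1 only, and the diagonal run at lower left holds genes at the limit of 3 counts in both OSE lines.

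The 79 genes low in both OSE lines held secretory products, enzymes and ciliary genes of the oviduct. *Ovgp1*, the oviductal glycoprotein, led them by level, with 19532, 17446 and 12708 CPM in oviductal lines, 16.1 CPM in OSE line 1 and 2793 CPM in OSE line 2. The OSE lines thus differed 174-fold from each other, and the edgeR test over both lines did not call it (adjusted p = 0.478). *Wfdc18*, a small secreted protein with a WAP domain, had 1061, 1060 and 1231 CPM against 0 and 107 CPM (adjusted p = 0.359). *Cldn10*, a tight junction claudin, had 331, 364 and 354 CPM against 1.93 and 75.0 CPM (adjusted p = 0.358). In these 3 genes line 1 lay far below line 2, which lay below the oviductal lines. *Alox15*, a lipoxygenase, was low in the reverse order, with 209, 168 and 282 CPM in oviductal lines, 11.6 CPM in line 1 and 1.31 CPM in line 2 (DESeq2 adjusted p = 5.67e-10; edgeR 0.105).

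Across the 20 oviduct secretory markers in the table, 19 were tested, of which edgeR called *Anpep* and DESeq2 called 3 (*Anpep*, *Alox15* and *Pax2*), all higher in oviductal organoids. The shares called higher over all genes were 0.0864% by edgeR and 1.57% by DESeq2. The median log2 fold change of the 19 was -0.19, beside 0.01 over all genes. *Pax8*, a Müllerian factor, had 148, 145 and 162 CPM in oviductal lines, 36.7 CPM in OSE line 1 and 155 CPM in OSE line 2, so that line 2 lay within the oviductal range. *Wfdc2* had 1413 to 2615 CPM in oviductal lines and 2331 and 3599 CPM in OSE lines. In the Cas9-GFP oviductal lines *Ovgp1* had 57.1 to 82.8 CPM, below OSE line 2.

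By the 4-fold rule, 4 of 17 tested ciliated cell genes were low in both OSE lines (0.853% of all genes tested). Another 1 was low in line 2 only (0.821%) and 12 stood apart in neither. Summed over the 28 markers present, levels were 357 and 159 CPM in OSE lines 1 and 2 and 442 to 689 CPM in oviductal lines. The 4 genes low in both lines were as follows. *Foxj1*, the master regulator of motile cilia, had 45.9, 54.9 and 40.5 CPM in oviductal lines and 0.643 and 4.80 CPM in OSE lines 1 and 2 (DESeq2 adjusted p = 4.78e-06; edgeR 0.107). *Dynlrb2*, a dynein light chain, had 24.4, 96.5 and 67.2 CPM against 0 and 0.436 CPM, and *Pifo* had 24.4, 42.3 and 39.3 CPM against 0 and 3.05 CPM. *Tppp3*, a tubulin-binding protein, had 10.6, 57.9 and 36.5 CPM against 1.29 and 0.436 CPM. Each of these genes was lowest of the oviductal lines in line 1 except *Foxj1*, whose lowest line was line 3. Of 28 ciliated cell markers present, 17 were tested, and DESeq2 called 8 of them higher and 0 lower, whereas edgeR called 0 in either direction, with 10 at an unadjusted p under 0.05, all higher. The share DESeq2 called higher was 1.57% over all genes. The groups did not overlap for 13 of the 17, all higher, beside 16.1% of all genes tested. Of the 17, 6 had no count in the OSE lines and passed the filter through the oviductal lines alone. These 6 could only come out higher, so nothing is read from the excess. The median log2 fold change was 4.29, or 2.44 with the 6 genes that had no count in the OSE lines set at their lower bound.

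The 4 listed *Hoxb* genes were low in both OSE lines, and other *Hoxb* genes were not on the list. *Hoxb8*, *Hoxb7*, *Hoxb6* and *Hoxb5* lie next to each other on chromosome 11, from 96281905 to 96306121 of GRCm38 in the GENCODE vM21 annotation, and encode homeobox factors that set position along the body axis. *Hoxb6* had 52.0, 36.4 and 29.6 CPM in oviductal lines and 0 and 1.31 CPM in OSE lines, a ratio of 52.8 with a 95% counting interval of 17.8 to 258 (DESeq2 adjusted p = 7.44e-06; edgeR 0.0825). *Hoxb7* had 38.6, 23.7 and 32.5 CPM against 0 and 1.75 CPM, and *Hoxb8* had 16.2, 18.5 and 22.2 CPM against 0 and 0.873 CPM (edgeR adjusted p = 0.105 for each). Each of the 4 genes, *Hoxb5* included, had 2 to 4 counts over both OSE lines together. *Hoxc8* and *Hoxc6* showed the opposite, mainly in OSE line 1, and no listed *Hoxc* gene passed the filter for testing. *Hoxc8* had no count in the 3 oviductal lines, 287 CPM in OSE line 1 and 4.80 CPM in OSE line 2. *Hoxc6* had 0, 1.48 and 0 CPM in oviductal lines and 58.5 and 2.18 CPM in OSE lines 1 and 2.

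Other factors of the tract varied less or by line. *Pax2* had 15.8, 10.4 and 6.27 CPM in oviductal lines and no count in either OSE line, at least 6.69-fold higher (DESeq2 adjusted p = 0.00704; edgeR 0.164). *Emx2*, a Müllerian homeobox gene, overlapped, with 49.1 to 62.3 CPM in oviductal lines and 75.2 and 57.6 CPM in OSE lines. *Tbx2* had 67.8 to 83.2 CPM in oviductal lines, 0 CPM in OSE line 1 and 73.7 CPM in OSE line 2. Of 28 listed factors present, 13 were tested: edgeR called *Hoxb5* and DESeq2 called 6, all higher in oviductal organoids. Over all genes, edgeR called 0.0864% higher and DESeq2 1.57%. The median log2 fold change of the 13 was 0.96, beside 0.01 over all genes tested. *Gata4* and *Gata6*, factors of the coelomic and gonadal lineage, were high in OSE line 1, at 93.9 and 45.02 CPM, and lower in OSE line 2, at 6.98 and 6.54 CPM, while oviductal lines had 0 CPM and 1.14 to 2.44 CPM.

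**Figure D3:**
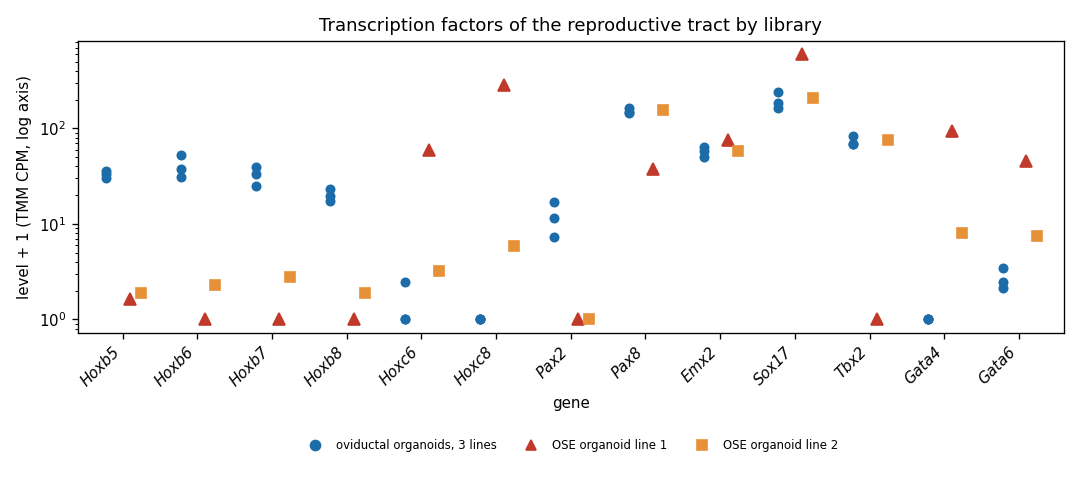
Level plus 1 (TMM-scaled CPM, log axis) of 13 transcription factor genes, a point per library. *Hoxb5* to *Hoxb8* and *Pax2* are high in the 3 oviductal lines and near 0 in both OSE lines, and *Hoxc8* is at 287 CPM in OSE line 1 only.

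Signaling genes came next. Among 16 ligands of the activin, BMP and TGF-β family 7 were tested, and DESeq2 called 2 higher in oviductal organoids (*Inhbb* and *Gdf15*) and 1 lower (*Bmp2*). Over all genes DESeq2 called 1.57% higher and 0.799% lower. *Inhbb*, the inhibin and activin subunit beta B, had 282, 475 and 393 CPM in oviductal lines and 28.3 and 61.5 CPM in OSE lines 1 and 2 (log2 fold change 3.08 ± 0.45, SE; edgeR adjusted p = 0.0896). *Gdf15*, a stress-induced ligand, had 47.9, 135 and 148 CPM against 0 and 0.436 CPM (edgeR adjusted p = 0.0528). *Bmp2* had 0 to 1.48 CPM in oviductal lines and 10.3 and 15.3 CPM in OSE lines. *Gdf10* was at 150.5 CPM in OSE line 1 and at or under 0.436 CPM in the other 4 libraries. Of 26 receptors, inhibitors and targets of this family 15 were tested and DESeq2 called *Bmpr1b*, a BMP receptor, and *Tgfbi*, a matrix protein induced by TGF-β, both higher in oviductal organoids. *Bmpr1b* had 30.9, 14.8 and 18.8 CPM against 0 and 2.62 CPM.

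In the WNT pathway edgeR called 0 of 21 tested genes. At an unadjusted p under 0.05 there were 3 higher and 2 lower, beside 598 higher and 462 lower of all 9257 genes tested. *Wnt16*, a WNT ligand, was called higher by DESeq2, with 18.7, 11.1 and 19.9 CPM in oviductal lines and 0 and 1.75 CPM in OSE lines (adjusted p = 0.00904). *Wnt5a* and *Wnt7b*, the other ligands tested, overlapped between groups, at 67.5 to 145 and 54.7 to 62.3 CPM in oviductal lines and at 71.4 and 41.4 and at 36.0 and 145 CPM in OSE lines 1 and 2. *Lgr5*, an R-spondin receptor and stem cell marker of the OSE, had 36.0 CPM in OSE line 1 and no count in OSE line 2 or in the oviductal lines. The feedback genes *Rnf43* and *Sp5* were also highest in OSE line 1, at 30.2 and 32.8 CPM against 10.9 and 8.73 CPM in OSE line 2 and 5.19 to 6.84 and 0 to 5.28 CPM in oviductal lines. *Sox9*, in contrast, had 719 to 855 CPM in oviductal lines, 80.4 CPM in OSE line 1 and 1801 CPM in OSE line 2. *Dkk3*, a secreted protein of the Dickkopf family, had 128 to 155 CPM, 0 CPM and 74.2 CPM in the same order.

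Most tested genes of the estrogen response separated the OSE lines, though not all in the same direction. Of 9 tested steroid receptor and estrogen response genes, 6 were low in OSE line 1 only (4.57% of all genes tested), 1 was high in line 1 only (1.13%), and 0 stood apart in both lines or in line 2 only. *Esr1*, the estrogen receptor α, had 60.1, 95.7 and 67.2 CPM in oviductal lines, 10.3 CPM in OSE line 1 and 49.3 CPM in OSE line 2. *Pgr*, the progesterone receptor, had 600.5, 353 and 419 CPM, 71.4 CPM and 925 CPM in the same order. *Greb1*, an estrogen-induced gene, had 289, 205 and 125 CPM in oviductal lines, no count in OSE line 1 and 313 CPM in OSE line 2, so that its level in line 2 was at least 162-fold that in line 1. Line 2 was thus at or above the oviductal lines for *Pgr* and *Greb1*. *Ltf*, also on this list, went the other way and was highest in OSE line 1. *Ltf*, *Lcn2* and *C3* are counted both here and among the secreted proteins of the next paragraph, which gives their levels. The list's median log2 fold change between groups was 0.39, and neither edgeR nor DESeq2 called any member; 1 member, *Padi2*, had an unadjusted p under 0.05.

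Of 16 tested secreted proteins of epithelial defense, 4 were low in OSE line 1 only (4.57% of all genes tested), 1 was low in both lines and 11 stood apart in neither. Their summed level over the 33 members present was 11701 CPM in OSE line 1 and 11817 CPM in OSE line 2, and 12366 to 17339 CPM in oviductal lines. *Lcn2*, an iron-binding protein, had 3529, 5821 and 5031 CPM in oviductal lines, 118 CPM in OSE line 1 and 4762 CPM in OSE line 2. *C3*, the central complement protein, had 1698, 1715 and 1767 CPM, 5.79 CPM and 468 CPM in the same order. *Ltf* (lactoferrin) had 3173 to 4751 CPM in oviductal lines, 5950 CPM in line 1 and 1596 CPM in line 2, and *Sftpd* (surfactant protein D) was alike in all 5 libraries at 841 to 1076 CPM. *Pigr*, the receptor that carries immunoglobulin A across epithelia, had 1105 CPM in OSE line 1 and at most 5.94 CPM elsewhere, and the antibacterial lectin *Reg3g* had 549 CPM in OSE line 1 and at most 1.31 CPM elsewhere. Of the 16 tested genes edgeR called 0, with 2 higher and 2 lower at an unadjusted p under 0.05. Among the 33 in the table DESeq2 made 1 call, *Reg3g*, lower in oviductal organoids, beside 0.799% called lower over all genes.

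Among tested genes that stood apart in 1 OSE line only, those with the largest ratio between the OSE lines went in both directions. Genes that were not tested, such as *Pigr* and *Reg3g*, were left out of this ranking. Low in OSE line 1 were the following. *BC048546* had 8873, 10343 and 6678 CPM in oviductal lines, 13.5 CPM in OSE line 1 and 3141 CPM in OSE line 2, and *Cryab*, a small heat shock protein, had 1694, 2835 and 2362, 10.3 and 2861 CPM in that order. *Slc14a1*, a urea transporter, had 1003, 1363 and 1289, 3.86 and 1061 CPM, and *Igfbp7*, a binding protein of insulin-like growth factors, had 783, 913 and 1367, 5.14 and 1030.5 CPM. *Gpx3*, the secreted glutathione peroxidase, had 235, 700 and 555, 4.502 and 1379 CPM, a 306-fold step between the OSE lines, and *Tmem213* had 306, 216 and 197, 0.643 and 609 CPM. OSE line 2 was inside or above the oviductal range in the latter 5 genes. In the other direction, *2210407C18Rik* had 43.3 to 72.3 CPM in oviductal lines, 243 CPM in line 1 and 0 CPM in line 2. *Ifitm1*, an interferon-induced membrane protein, had 177 to 329 CPM in oviductal lines, 1204 CPM in line 1 and 8.29 CPM in line 2. *Fabp5*, *C4bp* and *Tspan15* were at 250, 139 and 104 CPM in line 1 and at or under 1.75 CPM in line 2, with 0.812 to 17.5 CPM over the oviductal lines. *AA467197* had 945 CPM in line 1, 13.5 CPM in line 2 and 1.22 to 3.42 CPM in oviductal lines.

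**Figure D4:**
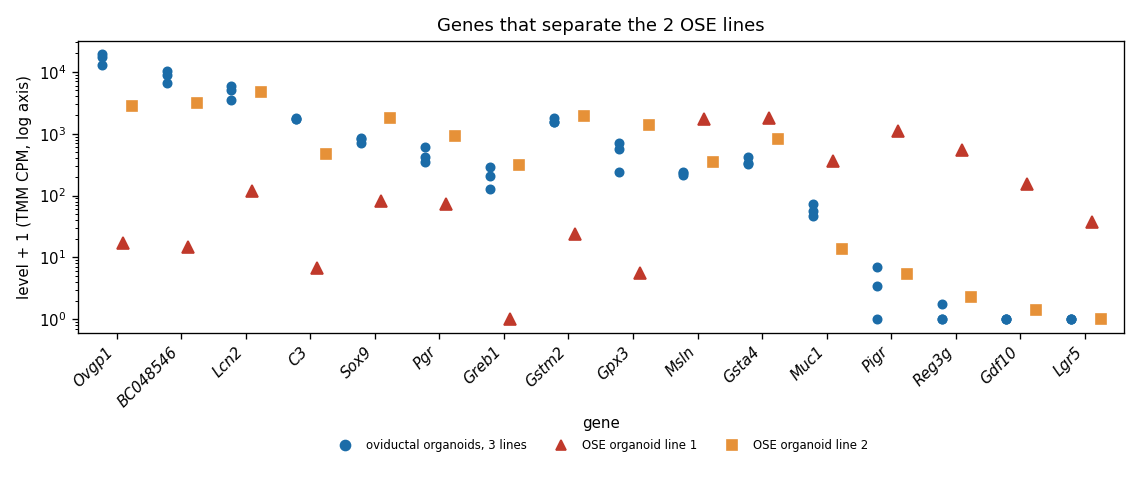
Level plus 1 (TMM-scaled CPM, log axis) of 16 genes, a point per library, for 3 oviductal lines and OSE lines 1 and 2. From *Ovgp1* to *Gpx3* OSE line 1 lies below the other 4 libraries, and from *Msln* to *Lgr5* it lies above them.

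Genes that were high in OSE organoids included detoxifying and OSE genes. *Gsta3*, a glutathione transferase, had 17.1, 20.03 and 33.6 CPM in oviductal lines, 1257 CPM in OSE line 1 and 135 CPM in OSE line 2 (DESeq2 adjusted p = 7.06e-07; edgeR 0.147), and *Gsta4* had 416, 332 and 326 CPM against 1813 and 829 CPM (DESeq2 adjusted p = 0.0011). Reads of these related genes may be split between family members. The glutathione transferases *Gstm1* and *Gstm2* were high in oviductal lines and OSE line 2, with 1523 to 1940 CPM for *Gstm2* and 147 to 303 CPM for *Gstm1*, and at 22.5 and 8.36 CPM in OSE line 1. Of 20 tested genes of the glutathione and NRF2 response, DESeq2 called the 2 transferases of the alpha class lower in oviductal organoids and 0 higher. Its share called lower over all genes was 0.799%. By edgeR 0 were called, with 3 at an unadjusted p under 0.05, all lower.

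*Prkg2*, a cGMP-dependent kinase, had 0, 0 and 2.85 CPM in oviductal lines and 95.8 and 126 CPM in OSE lines, and came nearest to a call among the lower genes (log2 fold change -6.82 ± 0.86, SE; edgeR adjusted p = 0.0825; DESeq2 0.0444). *Stra6*, a cellular receptor for retinol uptake, had 2.03, 5.94 and 5.13 CPM against 109 and 35.3 CPM (DESeq2 adjusted p = 1.65e-05; edgeR 0.105). In the Cas9-GFP oviductal lines *Stra6* had 21.1 to 123 CPM, which overlapped the OSE lines, and its log2 fold change against them was -0.30 (edgeR adjusted p = 0.863). *Psca*, a surface antigen of the LY6 family, had 1.48 to 2.44 CPM against 201 and 15.3 CPM. *Khdc1a* had no count in the oviductal lines and 1099 and 31.0 CPM in the OSE lines, on average at least 329-fold higher; close copies of this gene exist, so its reads are uncertain. The OSE lines agreed within a factor of 1.32 for *Prkg2* but differed 35.5-fold for *Khdc1a*. In the Cas9-GFP oviductal lines *Khdc1a* had 31.3 to 171 CPM and *Gsta3* 161 to 324 CPM, above OSE line 2, while *Prkg2* had 4.52 to 8.29 CPM.

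The remaining genes that DESeq2 called lower in oviductal organoids and that met the naming rule were high mainly in OSE line 1. *Ly6a* (Sca-1) had 20.8 to 33.7 CPM in oviductal lines, 718 CPM in line 1 and 38.8 CPM in line 2, *Aspa* 7.42 to 21.7, 376 and 44.9 CPM, and *Tnfrsf21*, a death receptor, 10.96 to 28.2, 350 and 35.3 CPM. *Ndrg2*, *Slfn2* and *2610528A11Rik* had 105 to 161 CPM in line 1 and 5.67 to 16.1 CPM in line 2. *Msln* had 240, 212 and 230 CPM in oviductal lines, 1711 CPM in line 1 and 352 CPM in line 2 (DESeq2 adjusted p = 0.0213; edgeR 0.258). Higher in oviductal organoids by the same rule were *Slc6a2*, the norepinephrine transporter, with 34.8 to 89.7 CPM and no count in OSE lines, the kinase *Cdkl1*, with 52.7 to 118 CPM against 0 and 4.36 CPM, and the natriuretic peptide receptor *Npr2*, with 97.4 to 111 CPM against 0 and 8.73 CPM. *Mogat2*, which makes diacylglycerol, had 65.3 to 73.5 CPM against 7.72 and 0 CPM, and netrin 1 (*Ntn1*) had 29.6 to 63.8 CPM against 0 and 5.67 CPM.

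Most keratins and junction genes were alike between groups. By the 4-fold rule, the 7 tested keratins and 24 of 29 tested junction genes stood apart in neither OSE line. *Cldn10*, a junction gene given above, was low in both lines (0.853% of all genes tested). A further 3 junction genes were low in line 1 only (4.57%) and *Cldn23* was high in line 1 only (1.13%). DESeq2 called *Krt19* lower in oviductal organoids (log2 fold change -1.43 ± 0.23, SE, by edgeR; DESeq2 adjusted p = 4.41e-05; edgeR 0.116) as the 1 call among 15 keratins in the table. *Krt7* had 1154 to 1692 CPM in oviductal lines and 2549 and 3095 CPM in OSE lines (DESeq2 adjusted p = 0.0812). Of 29 tested junction genes DESeq2 called *Cldn23*, with 7.71 to 8.55 CPM in oviductal lines and 99.7 and 20.1 CPM in OSE lines. The share that DESeq2 called lower over all genes was 0.799%. In the matrix, *Col4a1*, a chain of the basement membrane collagen IV, had 291 CPM in OSE line 1, 5.24 CPM in OSE line 2 and at most 0.57 CPM in oviductal lines, and *Col4a2* had 237, 10.9 and at most 2.28 CPM. *Vim* (vimentin) had 26.7 to 49.5 CPM in oviductal lines and 0.643 and 10.9 CPM in OSE lines 1 and 2.

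Cell cycle genes did not separate the groups as a set. Of 30 tested, edgeR called 0, and 2 were higher and 3 lower at an unadjusted p under 0.05. DESeq2 called 1, *Cdkn2a*, beside 1.57% called higher over all genes. *Cdkn2a*, whose products inhibit the cell cycle, had 88.5, 96.5 and 119 CPM in oviductal lines and 36.0 and 21.4 CPM in OSE lines 1 and 2 (adjusted p = 0.00186 by DESeq2 and 0.163 by edgeR). Counts per gene do not tell its transcripts apart. By the 4-fold rule 0 of the 30 genes were high in either line alone, 1 was low in line 1 only, 1 was low in line 2 only and 28 stood apart in neither. *Top2a*, a DNA topoisomerase of dividing cells, had 176 CPM in OSE line 1, 35.3 CPM in line 2 and 30.8 to 57.2 CPM in oviductal lines, and *Mki67* had 30.2, 5.24 and 0 to 12.2 CPM. The median log2 ratio to the oviductal mean over the 30 genes was 1.30 in line 1 and -0.10 in line 2. Among 19 tested interferon response genes DESeq2 called *B2m*, the light chain of MHC class I, and *Ifi44*. Both were higher in oviductal organoids, beside 1.57% called higher over all genes. *B2m* had 292, 301 and 411 CPM against 86.2 and 114 CPM (adjusted p = 0.000107 by DESeq2 and 0.137 by edgeR).

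Lists with few or no calls were the following, beside 1.57% called higher and 0.799% called lower by DESeq2 over all genes. Among 18 tested immediate early genes edgeR and DESeq2 called 0, although 6 were lower in oviductal organoids at an unadjusted p under 0.05 and 9 did not overlap, all lower, beside 13.6% of all genes tested, for example *Fos* with 604 to 701 CPM against 1451 and 1004 CPM; the median log2 fold change was -0.44. In cholesterol synthesis DESeq2 called *Nsdhl* of 21 tested, with 64.5 to 103 CPM in oviductal lines and 36.7 and 25.7 CPM in OSE lines. Among 20 tested genes of hypoxia and glycolysis both tools called 0, 1 had an unadjusted p under 0.05, and the median was -0.05. In the Notch pathway DESeq2 called the ligand gene *Dll4* of 8 tested, with 4.45 to 26.2 CPM in oviductal lines and no count in the OSE lines, at least 8.65-fold higher. Of the EGF family DESeq2 called *Areg*, the ligand amphiregulin, with 1.62 to 3.99 CPM in oviductal lines and 64.3 and 8.29 CPM in OSE lines 1 and 2.

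The genes low or high in both OSE lines were also looked up in the Cas9-GFP lines and in the tissues. In the Cas9-GFP lines 40 of the 79 genes lay above both OSE lines, 36 overlapped and 3 lay below, beside 18.2% above and 20.6% below over all genes tested. The same OSE libraries chose these genes and serve as the reference here, so nothing is read from the excess. Of the 14 genes high in both OSE lines, such as *Prkg2* and *Aldh1a2*, the Cas9-GFP lines lay below both OSE lines for 8 and overlapped for 6. Between the parental tissues, edgeR called 51 of the 79 genes higher in oviduct than in OSE tissue and 4 lower. The shares over all 11458 genes were 18.5% and 15.5%. The tissue levels come from other libraries, but the test was fitted together with the organoid libraries that chose the genes. Its filter, scaling and estimate of spread rest on both, so these counts are not a fully separate check. Of the 14, 0 were called higher and 3 lower in oviduct tissue. *Hoxb5*, for example, had 35.2 to 39.8 CPM in oviduct tissue and 0 to 0.742 CPM in OSE tissue, and *Fndc7* 98.1 to 122 and 0 to 2.02 CPM.

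The last comparison asked whether the difference between oviduct and OSE was the same in organoids as in the tissues. An interaction term over 11 libraries called 573 of 11458 genes (5%) with a difference more positive in organoids and 765 (6.68%) with a difference more negative. *Rab25*, a small GTPase of epithelial cells, had 172 to 202 CPM in oviductal and 219 to 228 CPM in OSE organoids, but 84.9 to 94.1 CPM in oviduct and 0 to 1.35 CPM in OSE tissue (interaction -6.70 ± 0.43 on the log2 scale, SE; edgeR adjusted p = 9.16e-06). *Ehf*, an epithelial ETS factor, *Cd24a* and *Sox17*, a factor of the oviduct epithelium, had the same form. *Ehf* had 172 to 209 and 200 to 234 CPM in the organoid groups and 196 to 219 and 8.54 to 11.1 CPM in the tissues (-4.47 ± 0.28, SE; adjusted p = 9.16e-06). *Cd24a* had 13.3 to 22.9 CPM and *Sox17* 8.54 to 10.1 CPM in OSE tissue. These 4 genes were high in both organoid groups and in oviduct tissue and low in OSE tissue.

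*Inhbb* went in opposite directions, with 23.9 to 43.5 CPM in oviduct and 939 to 1332 CPM in OSE tissue, against the higher oviductal level in organoids given above (8.24 ± 0.56, SE; adjusted p = 9.33e-06). *Pak3* had 15.1 to 40.9 CPM in oviduct and 96.2 to 114 CPM in OSE tissue and was also reversed (9.39 ± 0.69, SE; adjusted p = 1.3e-05). *Prkar2b*, a regulatory subunit of protein kinase A, had 20.6 to 29.1 CPM in all 5 organoid libraries and 884 to 1248 CPM in OSE tissue. *Anpep*, called in organoids, had 89.6 to 175 CPM in oviduct and 80.9 to 115 CPM in OSE tissue. The OSE tissue libraries held other cells of the ovary: granulosa markers summed to 3558 to 4428 CPM and steroidogenic markers to 5531 to 6698 CPM there, compared with at most 31.8 and 15.3 CPM in organoids, and smooth muscle markers summed to 5080 to 6111 CPM in oviduct tissue. In bulk samples, fewer cells of a type and less RNA per cell cannot be told apart, and the part of these cells in the interaction was not tested.

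**Figure D5:**
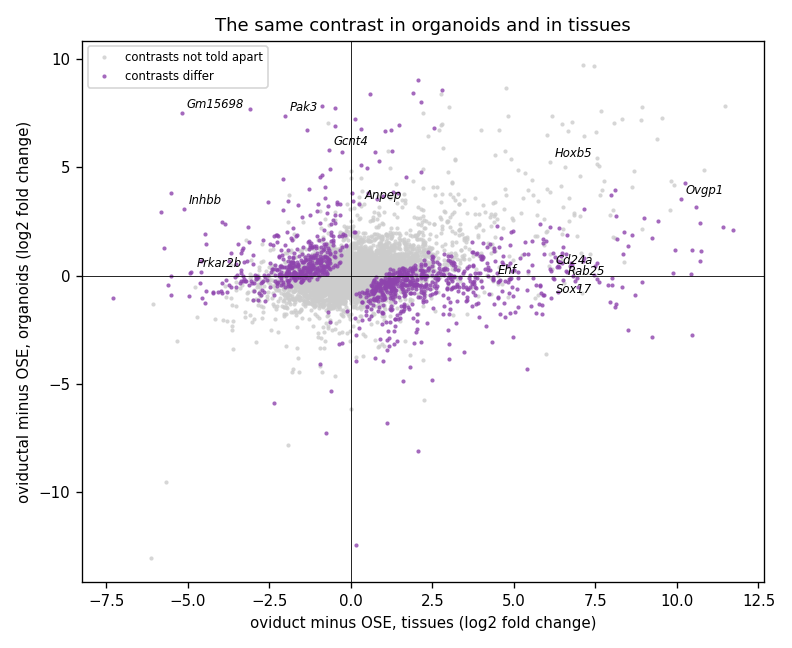
Log2 fold change of oviductal over OSE organoids (y axis) against that of oviduct over OSE tissue (x axis), a point per gene tested in both fits, with genes whose contrasts differ (edgeR adjusted p of the interaction under 0.05) in purple. *Inhbb*, *Pak3* and *Gm15698* lie in the upper left quadrant, and *Ehf*, *Rab25*, *Cd24a* and *Sox17* lie to the right near 0 on the y axis.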

How the data were processed

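RNA of 3 oviductal and 2 OSE organoid lines was compared. CEL-Seq2 libraries were read on a NextSeq500, and BWA mapped the read pairs to GRCm38. The authors deposited raw counts per gene, which are reads mapped uniquely and in the direction of transcription, not collapsed by molecular identifier, so amplified copies count separately. Their own comparisons used DESeq2 1.18.0. The table holds 18306 entries, and 1 spike-in entry was left out.

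Genes were tested in edgeR 4.0.16 (R 4.3.3; quasi-likelihood, TMM, filterByExpr) and, as the alternative, with DESeq2 1.42.0, with Benjamini-Hochberg adjustment and a threshold of 0.05. Levels of Cas9-GFP lines and tissues were scaled over 14 libraries, which moved organoid levels by at most 0.704%. The lowest chi-square per gene between 2 oviductal or OSE lines was 3.93, above the counting error of independent reads. Amplified copies can also raise this value, so it cannot show that the libraries are separate samples. Each library counted as 1 sample because the study describes the organoid lines as independent. The tests were checked on simulated counts.

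Named genes are all edgeR calls; per direction, up to 12 DESeq2 calls with the largest fold change, at least 50 CPM and groups apart; up to 6 genes with the largest ratio between OSE lines; list members; genes the study names; and the 4 interaction genes with the smallest p. *Folr1*, *Lgals1*, *Mpp3* and *Ttc39a* were named after their values were seen. Members and lists were chosen with earlier results of these data known. Listed genes without a match in the table are not analysed here. Promoters are RefSeq's (GRCm38.p6); of the 8 called genes, *Hoxb5* and 2 others had no entry. Alternatives were another size factor, no filter, other sets of libraries, leaving out each line, a replicate block and other thresholds.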

Additional observations from a re-analysis of the deposited data

Results flagged for a closer look

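The contrast of oviduct over OSE differed between organoids and tissues by the interaction test of edgeR (11 libraries) for 573 genes with a more positive and 765 genes with a more negative difference in organoids. The 4 genes with the smallest p in each direction had these interactions on the log2 scale. *Inhbb* was at 8.24 and *Pak3* at 9.39, both higher in oviductal organoids and in OSE tissue. *Gm15698*, with no count in the OSE organoids, 6.68 to 19.5 CPM in oviductal organoids and 396 to 462 CPM in OSE tissue, was at 12.48, a fitted value that is no bound. *Prkar2b* was at 5.10, with like levels in both organoid groups. *Ehf* was at -4.47, *Rab25* at -6.70, *Cd24a* at -5.76 and *Sox17* at -7.14, all with high levels in both organoid groups and at most 22.9 CPM in OSE tissue. The part of the ovarian cells in OSE tissue in these differences was not tested.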

How the results depend on the processing

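The number of calls rested on the fit. Against 8 genes higher and 0 lower in oviductal organoids, DESeq2 called 175 and 89, edgeR without the filter 78 and 38, with 11 libraries 313 and 188, with all 27 libraries 100 and 63, and with the Cas9-GFP oviductal lines 44 and 46. RLE size factors kept 8 and 0. The 8 genes were all among the calls of DESeq2, of the fit without the filter and of 11 libraries, 7 were among those of 27 libraries and 2 among those with Cas9-GFP lines. Leaving out 1 line gave 0 to 859 higher and 0 to 589 lower; the 0 came from leaving out an oviductal line, and a lone OSE line was assumed to vary like the oviductal lines. A replicate block for the number in the library name gave 0 higher and 0 lower. Same-numbered lines deviated together at r = 0.07 and -0.00184. With 2 OSE lines, each such value against line 1 is the negative of that against line 2. These values therefore cannot show whether same-numbered lines share more than a number. *Ndrg2* turned to 0.67 with the Cas9-GFP lines. The interaction gave 336 to 1223 and 489 to 1125 genes when 1 of the 11 libraries was left out (for the tissue and oviductal libraries chosen after seeing the data); the largest counts came without OSE line 1 or line 2. Classes of the OSE lines, in the order both low, both high, line 1 low, line 1 high, line 2 low, line 2 high and opposite, held 261, 83, 919, 415, 259, 122 and 55 genes at a 2-fold rule and 31, 3, 214, 49, 25, 6 and 0 at an 8-fold rule. Without 1 oviductal line they held 93 to 147, 18 to 24, 459 to 513, 131 to 150, 97 to 117, 27 to 33 and 5 to 6. Against the Cas9-GFP lines, both low fell to 49, both high rose to 30, line 2 high to 84 and opposite to 7; these last 2 alternatives were chosen after seeing the data. The causes were not tested.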

Other observations

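Genes that handle retinoids, a group chosen after its values were seen and so given with no test, differed along the path of retinol. *Rdh10*, which oxidizes retinol to retinal, had 124 to 205 CPM in oviductal lines against 10.3 and 38.0 CPM in OSE lines 1 and 2. *Stra6* and *Aldh1a2*, described above, were higher in both OSE lines than in the C57BL/6 oviductal lines, though not than in the Cas9-GFP lines for *Stra6*. *Cyp26b1*, which degrades retinoic acid, had 163 CPM in OSE line 1 only, with 9.16 CPM in line 2 and 3.99 to 17.9 CPM in oviductal lines. The receptors *Rara* and *Rarg* had 43.8 to 108 and 52.8 to 173 CPM over the 5 libraries.

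A second group chosen in the same way, complement and coagulation, had members that were low in OSE line 1, some of them, such as *Thbd*, in both OSE lines. *C4bp*, given above, went the other way and was high in line 1. *F3* (tissue factor) had 215, 333 and 362 CPM in oviductal lines, 3.22 CPM in line 1 and 161 CPM in line 2. *Cfi*, which inactivates complement C3b, had 81.6 to 114 CPM against 0 and 14.4 CPM, and *Thbd* (thrombomodulin) had 26.7 to 62.1 CPM against 0 and 1.31 CPM. *Thbd* had 0 to 1.62 CPM in the Cas9-GFP oviductal lines, at the OSE level.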
